A study of Homo sapiens with 4 samples.

Results

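The long noncoding RNAs expressed in MV4-11 cells, a human acute myeloid leukemia (AML) line of the myelomonocytic kind, were examined upon knockdown of CEBPG, a bZIP transcription factor of the C/EBP family. The genes were taken by their names. They comprise the snoRNA host genes named SNHG, the microRNA host genes named MIR...HG, the antisense genes named -AS, the intergenic genes named LINC, and MALAT1, NEAT1, GAS5, NORAD and DANCR. Of 833 such genes with a noncoding RefSeq transcript, 831 had a value and 348 of these reached 0.5 FPKM when all 4 libraries were averaged, out of 16490 genes in the whole table. They were selected on that mean level and on their names, and the difference between the groups was not used. FPKM is the number of fragments per kilobase of transcript, scaled to the mapped reads, so levels can be set side by side between genes. The control cells (sh-NC, 2 libraries) carried a control hairpin, and the knockdown cells (sh-CEBPG#3, 2 libraries) carried 1 hairpin against CEBPG. Hairpins against CEBPG were built in the pLKO.1-puro lentiviral vector, and the vector of the control hairpin is not given in the sources used here. Whether a group's libraries stem from separate infections is not stated in the labels, and the p-values may therefore measure technical spread only.

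CEBPG itself measured 30.4 and 33.6 FPKM in control cells and 19.2 and 17.1 FPKM in knockdown cells (log2 fold change -0.78, SE 0.09, adjusted p = 8.88e-05 in limma). All 10 myelomonocytic markers looked up were listed in each library. For 7 of them (CD33, MPO, CD68, LYZ, CSF1R, SPI1 and ITGAM) both knockdown libraries lay above both control libraries, and for 3 (FLT3, HOXA9 and MEIS1) both lay below. LYZ, lysozyme of granulocytes and monocytes, went from 567 and 610.5 FPKM in control cells to 3126 and 2982 FPKM in knockdown cells, whereas MEIS1, a homeobox gene of leukemic stem cells, went from 6.65 and 7.34 FPKM to 3.42 and 3.29 FPKM. CSF1R and ITGAM were low, with 4.41 and 7.74 FPKM in sh-NC replicate 1. The part of these differences in the results on noncoding genes was not tested. Of the 15 markers of other cells that were looked up, 10 were not listed, 4 had at most 1.33 FPKM in any library, and KRT8, an epithelial keratin also found elsewhere, had 2.29 and 2.35 FPKM in sh-NC cells and 6.26 and 6.19 FPKM in sh-CEBPG#3 cells. The FPKM totals ranged from 364353 to 389766, and the sequencing depth is unknown because the values carry no read counts. Log2(FPKM + 1) values were compared with limma over all 12142 genes that reached the same mean level, and the p-values were adjusted over all of these by the Benjamini-Hochberg method. The added 1 makes log2 fold changes of low genes smaller than those of the FPKM values themselves. An exact two-sided permutation test of 2 against 2 libraries cannot give a p below 0.333, so each p-value depends on the variance that limma models across genes.

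Long noncoding RNAs are transcripts that are not translated into a known protein. Some act as RNAs, others serve mainly as precursors, and for many the act of transcription or no function at all is known. The SNHG genes carry small nucleolar RNAs in their introns, which are cut out after splicing and guide the modification of ribosomal RNA, while the spliced exons are often degraded during translation. Many SNHG genes begin with a run of pyrimidines, as the genes of ribosomal proteins do, and such starts (5'TOP) place a transcript under the control of the mTOR pathway. MIR...HG transcripts are precursors of microRNAs, which repress mRNAs that match their seed, base 2 to 8 of the mature strand.

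The starts of some snoRNA host genes are shown because a run of pyrimidines at the start is a known feature of such genes and of ribosomal protein genes. Each stretch below runs from 10 bases before the annotated start and holds 30 bases, written 5' to 3' on the strand of the gene from RefSeq promoters (GRCh38.p14), with a run of 5 or more pyrimidines near the start in capitals. In SNHG29 the marked run lies before the annotated start and goes on upstream of the stretch shown. In SNHG1 and SNHG11 it begins only after the annotated start. A marked run is thus not always one with which the annotated transcript begins. The first 7 were chosen with such a run. GAS5 and RPS6, a ribosomal protein gene, are set beside them. In GAS5 the longest run that touches the bases from 5 before to 10 after the annotated start is 3. For each gene 1 annotated start was read, and the start used in these cells was not measured.
SNHG19 (chr16:2155339-2155368, minus strand): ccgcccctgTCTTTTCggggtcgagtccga
SNHG8 (chr4:118278752-118278781, plus strand): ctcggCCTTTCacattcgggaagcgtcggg
SNHG1 (chr11:62855866-62855895, minus strand): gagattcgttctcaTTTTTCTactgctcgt
SNHG29 (chr17:16438977-16439006, plus strand): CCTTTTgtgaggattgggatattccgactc
SNHG12 (chr1:28581854-28581883, minus strand): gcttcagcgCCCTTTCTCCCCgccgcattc
SNHG4 (chr5:139274091-139274120, plus strand): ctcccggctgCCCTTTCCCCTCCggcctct
SNHG11 (chr20:38446644-38446673, plus strand): gctctaggctgcagccgcgCCCCCagccgt
GAS5 (chr1:173869026-173869055, minus strand): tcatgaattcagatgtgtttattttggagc
RPS6 (chr9:19380217-19380246, minus strand): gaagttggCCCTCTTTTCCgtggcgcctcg
A run of 7 or more pyrimidines that touches the window from 5 bases before to 10 bases after the start was found in 7 of the 16 SNHG and GAS5 promoters listed there (43.8%) and in 73.4% of 79 promoters of ribosomal protein genes, compared with 17.9% of all 35116 promoters. In the promoters of all the noncoding genes examined (307 promoters of 257 genes) the share was 17.3%. SNHG20, SNHG21 and SNHG10 had no run of 5 there either.

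MicroRNAs of the 6 host genes named MIR...HG that changed are shown because the seed is the part by which they recognise mRNAs. The mature strands come from RefSeq (GRCh38.p14), and the seed is in capitals.
hsa-miR-17-5p (MIR17HG): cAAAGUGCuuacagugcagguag
hsa-miR-20a-5p (MIR17HG): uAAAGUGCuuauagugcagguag
hsa-miR-18a-5p (MIR17HG): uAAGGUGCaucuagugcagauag
hsa-miR-19a-3p (MIR17HG): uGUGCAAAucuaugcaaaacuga
hsa-miR-19b-3p (MIR17HG): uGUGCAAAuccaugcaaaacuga
hsa-miR-92a-3p (MIR17HG): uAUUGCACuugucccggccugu
hsa-miR-9-5p (MIR9-3HG): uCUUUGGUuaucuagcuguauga
hsa-miR-155-5p (MIR155HG): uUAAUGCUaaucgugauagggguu
hsa-miR-22-3p (MIR22HG): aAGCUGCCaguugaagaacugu
hsa-miR-3945 (MIR3945HG): aGGGCAUAggagaggguugauau
hsa-miR-4435 (MIR4435-2HG): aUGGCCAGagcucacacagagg
miR-17-5p and miR-20a-5p share the seed AAAGUGC, and miR-19a-3p and miR-19b-3p share GUGCAAA. The 6 microRNA genes of MIR17HG lie between 91350618 and 91351382 on chromosome 13, all within the host gene. Only the host transcripts were measured here, not the mature microRNAs.

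To see how far noncoding RNAs responded to CEBPG knockdown, the sh-CEBPG#3 libraries were compared with the sh-NC libraries. Of the 348 genes, 103 passed an adjusted p of 0.05 (29.6%), of which 50 rose and 53 fell. Over all genes tested the share was 42.2%, with 18.5% higher and 23.8% lower. The noncoding genes were low, with a median of 1.66 FPKM against 7.51 FPKM over all genes tested, and 196 of them had less than 2 FPKM. Within that range 19.9% of the noncoding genes passed, compared with 26.0% of all genes tested at that level. Between 2 and 10 FPKM the shares were 38.7% and 41.0%, and at 10 FPKM or more they were 54.5% (18 of 33 genes) and 50.5%. The groups did not overlap in 226 of the 348 genes (64.9%), compared with 71.7% of all genes tested. The median log2 fold change was -0.06 in the noncoding genes and -0.04 over all genes tested.

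Large changes were few. When an absolute log2 fold change above 1 was required together with an unadjusted p under 0.05, 6 of the 348 genes passed, 5 higher (ITGB2-AS1, LINC01547, MIR34AHG, LINC00996 and MIR3945HG) and 1 lower (CDK6-AS1), while 3.41% of all genes tested passed, with 2.36% higher and 1.05% lower. Of these 6, MIR34AHG had overlapping groups, and ITGB2-AS1 and MIR3945HG were kept only through the knockdown group. The count depended on the pseudocount, and with 0.1 in place of 1 it was 24. For 43 of the 348 genes the mean of 1 group lay under 0.5 FPKM, so that they were kept through the other group. Of these 43 genes 9 rose and 4 fell, and of the other 305 genes 90 passed the test. At the edge of the selection, PAXBP1-AS1, PITRM1-AS1 and CA3-AS1 had means of 0.502, 0.502 and 0.501 FPKM, whereas STX18-AS1, PCF11-AS1 and IDH1-AS1 fell short with 0.497, 0.495 and 0.494 FPKM.

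**Figure D1:**
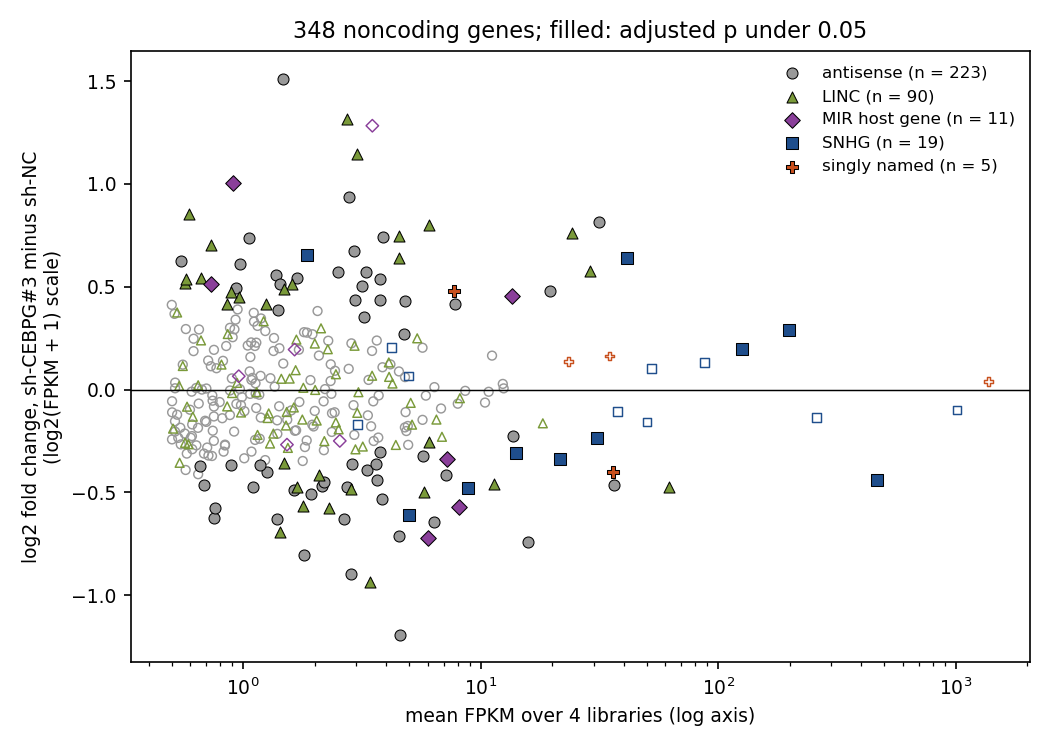
Log2 fold change (sh-CEBPG#3 minus sh-NC, log2(FPKM + 1) scale) of each of the 348 noncoding genes against its mean FPKM over the 4 libraries (log axis), with a symbol for each name class and filled symbols for an adjusted p under 0.05. The 5 LINC, antisense and MIR host genes past a log2 change of 1 in the upper part, and CDK6-AS1 at -1.19 in the lower part, all have a mean under 5 FPKM, and the 6 genes at 100 FPKM or more lie between -0.44 and 0.29.

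The snoRNA host genes were the most abundant of the noncoding genes, and they moved in both directions. Among the 19 SNHG genes 4 rose, 6 fell and 9 did not pass the test, with a median log2 fold change of -0.11. The share that passed (52.6%) was near the 50.5% of all genes tested at 10 FPKM or more. No SNHG gene had an absolute log2 fold change above 1. The 4 most abundant noncoding genes (GAS5, SNHG29, SNHG6 and SNHG5) held between 62.4% and 65.4% of the FPKM of all 348 genes in each library.

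SNHG6 had 495 and 576 FPKM in control cells and 389 and 398 FPKM in knockdown cells, without overlap, and fell by 0.44 on the log2 scale (SE 0.08, adjusted p = 0.00200 in limma). It hosts SNORD87, a box C/D snoRNA. SNHG11, which spans SNORA60 and SNORA71E, had 5.86 and 6.61 FPKM in control cells and 3.71 and 3.75 FPKM in knockdown cells, the largest decrease among the SNHG genes (log2 fold change -0.61, SE 0.10, adjusted p = 0.000838 in limma). SNHG25, the host of SNORD104, went from 9.04 and 11.96 FPKM to 7.03 and 7.36 FPKM, a log2 fold change of -0.48. Smaller decreases were found for SNHG17 (-0.33), SNHG4 (-0.31) and SNHG12 (-0.24), each of which spans several snoRNA genes. The call of SNHG25 was lost without sh-NC replicate 2 (log2 fold change -0.29, adjusted p = 0.0541 in limma), that of SNHG17 without sh-CEBPG#3 replicate 1 (adjusted p = 0.130), and that of SNHG4 without sh-NC replicate 1 (adjusted p = 0.0768) or sh-CEBPG#3 replicate 2 (adjusted p = 0.0751).

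SNHG19, the host of SNORD60, rose in both knockdown libraries. It had 32.5 and 31.4 FPKM in sh-NC cells and 48.9 and 51.9 FPKM in sh-CEBPG#3 cells, a log2 fold change of 0.64 (SE 0.07, adjusted p = 0.000106 in limma). The gene lies on chromosome 16 from 2154782 to 2155358 on the minus strand, and TRAF7, whose annotated span is 293 bases away on the other strand, did not pass the test (log2 fold change 0.14, adjusted p = 0.163 in limma). SNHG8, which hosts SNORA24, rose from 180.2 and 179 FPKM to 224 and 216 FPKM (log2 fold change 0.29, SE 0.07, adjusted p = 0.00592 in limma), and SNHG9, which hosts SNORA78, rose from 1.45 and 0.995 FPKM to 2.07 and 2.93 FPKM (log2 fold change 0.65). SNHG1 carries 8 box C/D snoRNAs and went from 114 and 121 FPKM to 138 and 132 FPKM (log2 fold change 0.20, adjusted p = 0.0460 in limma). The call of SNHG1 was lost without sh-NC replicate 1, sh-CEBPG#3 replicate 1 or sh-CEBPG#3 replicate 2 (adjusted p = 0.110, 0.321 and 0.165), and that of SNHG8 without sh-CEBPG#3 replicate 1 or 2 (adjusted p = 0.115 and 0.0697).

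GAS5 is the host of a large group of box C/D snoRNAs, and its spliced RNA is known to accumulate when growth stops. It was the most abundant of the 348 genes, with 1322 and 1401 FPKM in sh-NC cells and 1426 and 1374 FPKM in sh-CEBPG#3 cells. The groups overlapped, and the log2 fold change was 0.04 (SE 0.07, adjusted p = 0.680 in limma). With quantile normalization it was 0.12 (adjusted p = 0.00709), and without sh-NC replicate 1 its sign turned (-0.0019, adjusted p = 0.987).

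SNHG29, which spans SNORD49A, SNORD49B and SNORD65 on chromosome 17, had 1057 and 1039 FPKM in sh-NC cells and 978 and 979 FPKM in sh-CEBPG#3 cells. This difference did not pass the test (log2 fold change -0.10, SE 0.07, adjusted p = 0.256 in limma). The sum over its 32 RefSeq transcripts holds values that went both ways. For 6 transcripts both knockdown libraries were above both control libraries, for 7 both were below, and for 19 the groups overlapped. NR_027159 fell from 157 and 172 FPKM to 102 and 100.3 FPKM (log2 fold change -0.69, adjusted p = 0.0202 in limma per transcript), whereas NR_027170 rose from 26.9 and 24.8 FPKM to 40.2 and 47.5 FPKM (0.74, adjusted p = 0.0370). The most abundant transcript, NR_027162, had 137 and 255 FPKM in the control libraries and 137 and 96.3 FPKM in the knockdown libraries, so that replicates differed as much as the groups did. How the fragments were divided among the transcripts of a gene is not given in the sources used here, and single transcripts of SNHG29 are uncertain for that reason. SNHG29 was the 1 gene among the 105 with several transcripts in which transcripts were called in both directions.

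Counted by position instead of name, 25 of the 348 genes span at least 1 snoRNA or scaRNA gene in RefSeq. Of these 4 rose, 9 fell and 12 did not pass, with a median log2 fold change of -0.11 and a median level of 36.0 FPKM, where 50.5% of all genes tested at 10 FPKM or more passed. Lower genes outnumbered higher ones among all genes tested as well (23.8% and 18.5%). The other 323 genes, with a median of 1.49 FPKM, had 46 higher and 44 lower. The genes outside the SNHG family that fell in this group were DANCR (SNORA26), EPB41L4A-AS1 (SNORA13) and LINC00888 (SNORA63D and SNORA63E), which RefSeq now calls SNHG33.

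Among the singly named genes, DANCR and MALAT1 passed the test in opposite directions. DANCR, an RNA known for holding progenitor cells back from differentiation, had 38.5 and 43.7 FPKM in sh-NC cells and 33.4 and 28.5 FPKM in sh-CEBPG#3 cells (log2 fold change -0.40, SE 0.10, adjusted p = 0.00746 in limma). Without sh-CEBPG#3 replicate 2 it was -0.29 (adjusted p = 0.0851). MALAT1, an abundant RNA of nuclear speckles in most cells, had only 5.51 and 7.13 FPKM in control cells and 9.90 and 8.43 FPKM in knockdown cells (log2 fold change 0.48, SE 0.12, adjusted p = 0.01004 in limma). Leaving out sh-CEBPG#3 replicate 1 gave 0.37, where its call was lost, and leaving out sh-NC replicate 1 gave 0.32. NEAT1, the scaffold of paraspeckles and the neighbour of MALAT1 on chromosome 11, had 24.4 and 20.1 FPKM against 25.3 and 23.7 FPKM, a difference within the spread (log2 fold change 0.14, adjusted p = 0.279 in limma). Without sh-NC replicate 1 its log2 fold change was 0.27, in a fit where the spread of the gene itself did not enter the variance. NORAD, an RNA known for guarding chromosome stability, had 32.5 and 32.9 FPKM in control cells and 38.1 and 35.4 FPKM in knockdown cells, with a log2 fold change of 0.16 and an adjusted p of 0.107 in limma. It passed with quantile normalization (0.17, adjusted p = 0.0308).

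Of the 11 microRNA host genes named MIR...HG 3 rose, 3 fell and 5 did not pass (54.5% called, beside 42.2% of all genes tested). Their median level was 2.55 FPKM, and 41.0% of all genes tested between 2 and 10 FPKM passed. MIR17HG gives the miR-17-92 cluster, which promotes proliferation in many blood cancers. It lies on chromosome 13 from 91347687 to 91354577 on the plus strand. It had 9.77 and 5.84 FPKM in sh-NC cells and 4.73 and 3.72 FPKM in sh-CEBPG#3 cells, with both knockdown libraries below both controls (log2 fold change -0.72, SE 0.18, adjusted p = 0.00992 in limma). The sh-NC libraries differed by more than the lower of them differed from the knockdown libraries, and without sh-NC replicate 1 the log2 fold change was -0.40. Its call was lost without a filter on low genes (adjusted p = 0.102 in limma) and with quantile normalization (adjusted p = 0.0569). MIR9-3HG, whose product miR-9 is abundant in AML with MLL rearrangement, fell from 10.3 and 9.50 FPKM to 6.44 and 6.22 FPKM (log2 fold change -0.57, SE 0.09, adjusted p = 0.000679 in limma). Its most abundant transcript, NR_133003, had 3.78 and 5.69 FPKM against 4.08 and 4.11 FPKM and did not pass by itself (-0.15, adjusted p = 0.674 in limma per transcript). The third of these, MIR4435-2HG, went from 7.86 and 8.55 FPKM to 6.38 and 6.19 FPKM (-0.34, adjusted p = 0.0132 in limma), and lost its call without sh-NC replicate 2 (adjusted p = 0.0739) or sh-CEBPG#3 replicate 2 (adjusted p = 0.0570).

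MIR155HG, the precursor of miR-155, a microRNA induced when myeloid cells are activated, was higher in the knockdown cells. It had 10.9 and 11.6 FPKM in sh-NC cells and 16.9 and 14.6 FPKM in sh-CEBPG#3 cells (log2 fold change 0.45, SE 0.09, adjusted p = 0.00339 in limma). MIR22HG rose from 0.376 and 0.486 FPKM to 1.07 and 1.01 FPKM (log2 fold change 0.51, SE 0.14, adjusted p = 0.0126 in limma), and MIR3945HG from 0.117 and 0.430 FPKM to 1.41 and 1.66 FPKM (1.00, SE 0.16, adjusted p = 0.000698 in limma). Both were kept through the knockdown group alone, since their control means lay under 0.5 FPKM. ACSL1, a fatty acid activating enzyme whose gene lies 16478 bases from MIR3945HG on the same strand, rose from 29.5 and 31.0 FPKM to 70.3 and 65.8 FPKM (log2 fold change 1.14, adjusted p = 2.80e-06 in limma). MIR34AHG, the host of the p53 target miR-34a, was listed at 0 in sh-NC replicate 1 and had 4.52 FPKM in sh-NC replicate 2, against 5.25 and 4.23 FPKM in the knockdown libraries. Its groups overlapped, and the log2 fold change of 1.28 had an adjusted p of 0.0925 in limma. Without sh-NC replicate 2, the controls were a value of 0 alone, and without sh-NC replicate 1 the log2 fold change was 0.05.

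**Figure D2:**
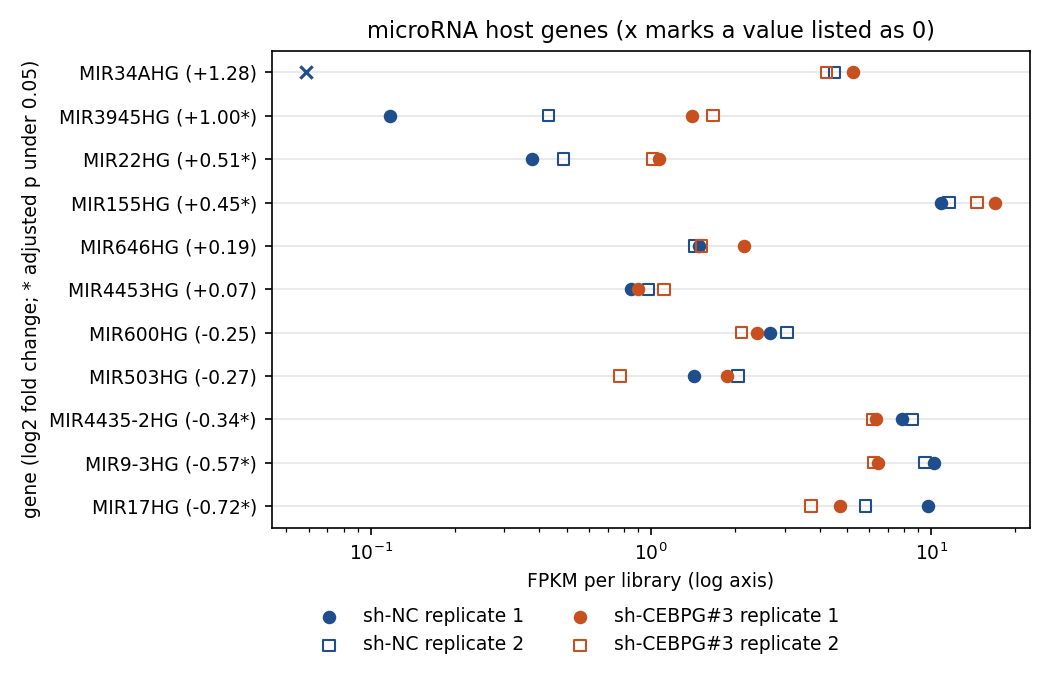
FPKM in each library (log axis) for the 11 microRNA host genes, ordered by log2 fold change, with a star for an adjusted p under 0.05. The cross at the left marks the value listed as 0 for MIR34AHG in sh-NC replicate 1 and has no place on the axis, and the 2 control points of MIR17HG (9.77 and 5.84 FPKM) lie far apart.

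The antisense genes were the largest class and the lowest, with a median of 1.36 FPKM. Of 223 genes 24 rose, 31 fell and 168 did not pass, with a median log2 fold change of -0.06. The share that passed was 24.7%, near the 26.0% of all genes tested under 2 FPKM. CDK6-AS1 showed the largest decrease of all 348 genes. It had 7.82 and 5.61 FPKM in sh-NC cells and 1.80 and 2.99 FPKM in sh-CEBPG#3 cells (log2 fold change -1.19, SE 0.18, adjusted p = 0.000494 in limma). CDK6, the cell cycle kinase on the other strand, whose start lies 206 bases away, had 23.1 and 23.1 FPKM in control cells and 23.1 and 20.2 FPKM in knockdown cells, a difference that did not pass (log2 fold change -0.09, SE 0.09, adjusted p = 0.405 in limma). The decrease of CDK6-AS1 came from NR_110087, with 7.12 and 4.67 FPKM against 0.737 and 2.25 FPKM, while NR_110086 and NR_110088 stayed at 1.05 FPKM or less in each library.

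Several antisense genes fell beside their sense genes. GATA2-AS1 had 4.23 and 3.79 FPKM in control cells and 1.74 and 1.65 FPKM in knockdown cells (log2 fold change -0.89, SE 0.11, adjusted p = 0.000147 in limma), and GATA2, a transcription factor of blood stem and progenitor cells, went from 8.92 and 10.7 FPKM to 3.08 and 3.37 FPKM (-1.35, adjusted p = 8.68e-06 in limma). OIP5-AS1, also known as cyrano, was the most significant decrease of the class, from 19.5 and 20.5 FPKM to 11.9 and 11.2 FPKM (-0.74, SE 0.08, adjusted p = 8.02e-05 in limma). Its partner OIP5, a protein that loads the centromeric histone, had a log2 fold change of -0.60. TMPO-AS1 (-0.71, adjusted p = 0.000595 in limma) and TMPO (-0.53, adjusted p = 0.000566 in limma), a protein of the nuclear lamina, fell together as well. EPB41L4A-AS1 fell from 42.5 and 42.6 FPKM to 31.6 and 29.6 FPKM (-0.46), whereas EPB41L4A had 1.66, 1.59, 1.48 and 1.71 FPKM and did not pass (-0.02, adjusted p = 0.921 in limma). TSPOAP1-AS1 (-0.23, adjusted p = 0.0455) lost its call when any 1 library was left out (adjusted p between 0.0869 and 0.209 in limma).

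ITGB2-AS1 had the highest log2 fold change of the 348 genes, but with a control mean under 0.5 FPKM it was kept only through the knockdown group, where it is high. It was listed at 0 in sh-NC replicate 1 and had 0.621 FPKM in sh-NC replicate 2, against 2.74 and 2.53 FPKM in the knockdown libraries (log2 fold change 1.51, SE 0.20, adjusted p = 0.000245 in limma). ITGB2, the beta chain of the leukocyte integrins, rose from 122 and 138 FPKM to 244 and 235 FPKM (0.88, SE 0.08, adjusted p = 1.88e-05 in limma). LINC01547, whose annotated span lies 825 bases from ITGB2 on the same strand, rose from 1.30 and 1.00 FPKM to 4.45 and 4.23 FPKM (1.31, SE 0.12, adjusted p = 1.89e-05 in limma). ITGB2-AS1 (chromosome 21 from 44921035 to 44929680, plus strand) and LINC01547 (44933284 to 44939913, minus strand) lie on either side of the start of ITGB2. SLC9A3-AS1 (25.1 and 20.2 FPKM against 41.6 and 39.1 FPKM, 0.81) also rose together with SLC9A3 (0.97), while FGD5-AS1 rose from 16.5 and 15.9 FPKM to 23.3 and 22.7 FPKM (0.48) and its sense gene was not listed. AFAP1-AS1 (0.74) and PTOV1-AS1 (0.74) rose as well. PTOV1 itself did not pass (log2 fold change 0.13, adjusted p = 0.212 in limma), and AFAP1 was below the level required for testing.

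VIM-AS1 and VIM moved apart. VIM-AS1 rose from 1.53 and 1.69 FPKM to 4.26 and 3.73 FPKM (log2 fold change 0.93, SE 0.11, adjusted p = 0.000135 in limma), whereas VIM, the intermediate filament vimentin, fell from 175 and 178 FPKM to 146 and 139.8 FPKM (-0.30, SE 0.07, adjusted p = 0.00521 in limma). THUMPD3-AS1 (0.43) and THUMPD3 (-0.86), and LBX2-AS1 (0.49) and LBX2 (-0.40), were opposite as well. LBX2 was low, with 0.796 and 0.757 FPKM in sh-NC cells and 0.445 and 0.250 FPKM in sh-CEBPG#3 cells. With a knockdown mean under 0.5 FPKM, it was tested only through the control group. Both calls of this pair lay near the limit (adjusted p = 0.0497 for LBX2-AS1 and 0.0484 for LBX2 in limma). THUMPD3-AS1, LBX2-AS1 and the pairs in the next paragraph without values per library were named after their values had been seen.

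To compare antisense genes with their sense genes as a whole, the symbol before -AS was taken as the partner. Of 190 pairs with both genes tested, both passed in 29, the antisense gene alone in 18, the sense gene alone in 53 and neither in 90. Of the 29 pairs, 23 moved in the same direction (8 higher, 15 lower) and 6 in opposite directions. By themselves 82 of the 190 sense genes and 47 of the antisense genes passed, beside 42.2% of all genes tested. How many joint calls and shared directions such shares give without a link between partners was not tested. Across the 190 pairs the log2 fold changes had a Pearson's r of 0.30 and a Spearman's rho of 0.22, as a description across genes of the same libraries. In GENCODE release 44 (GRCh38), exons of the partners overlap in 145 pairs, which held 22 of the 23 pairs of the same direction and 3 of the 6 opposite ones (r = 0.36). In 17 pairs the genes overlap without sharing exonic bases. Of these, 3 pairs passed together, all in opposite directions. EMC3-AS1 had -0.63 and EMC3 0.26, TRAF3IP2-AS1 -0.44 and TRAF3IP2 0.39, and RALY-AS1 0.61 and RALY -0.40. Where the genes lie apart (25 pairs), 1 pair passed together, PRKCQ-AS1 (-0.51) and PRKCQ (-0.40). The library kit named in the labels does not record the strand, so fragments of overlapping exons cannot be told apart between partners, and its part in the shared direction was not tested. The pairs of the same direction fell to 14 without sh-CEBPG#3 replicate 2, and the opposite ones to 3 without sh-NC replicate 1 and to 2 without sh-CEBPG#3 replicate 1.

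Of the 90 LINC genes 18 rose, 12 fell and 60 did not pass, with a median log2 fold change of -0.01. The share that passed was 33.3%, beside 42.2% of all genes tested and 26.0% of those under 2 FPKM. LINC00996 showed the clearest increase after LINC01547, from 1.49 and 1.53 FPKM to 4.74 and 4.36 FPKM (log2 fold change 1.14, SE 0.11, adjusted p = 2.53e-05 in limma). LINC00599, called MIR124-1HG in RefSeq as the host of miR-124, rose from 18.3 and 17.1 FPKM to 32.2 and 29.3 FPKM (0.76, SE 0.08, adjusted p = 6.78e-05 in limma). LINC02169 rose from 3.79 and 4.53 FPKM to 7.36 and 8.60 FPKM (0.80), while IRX3, a homeobox gene 12425 bases away on the same strand, fell from 40.6 and 49.2 FPKM to 27.96 and 26.4 FPKM (-0.70, adjusted p = 0.000300 in limma). LINC00926 rose from 24.3 and 21.8 FPKM to 36.0 and 33.8 FPKM (0.58, adjusted p = 0.000406 in limma), next to TCF12, which fell (-0.33, adjusted p = 0.0182). LINC00051 was low, with 0.270 and 0 FPKM in the control libraries and 0.859 and 1.23 FPKM in the knockdown libraries (0.85, adjusted p = 0.00280 in limma), and it too was kept only through the knockdown group.

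LINC00339 fell most among the LINC genes, from 4.16 and 5.51 FPKM to 1.96 and 2.11 FPKM (log2 fold change -0.93, SE 0.13, adjusted p = 0.000291 in limma). CDC42, a small GTPase of cell polarity 21404 bases from it on the same strand, had 69.4 and 70.9 FPKM in control cells and 76.6 and 76.0 FPKM in knockdown cells and did not pass (0.12, adjusted p = 0.187 in limma). LINC02067 was the most abundant LINC gene and went from 68.8 and 75.3 FPKM to 51.4 and 51.8 FPKM (-0.47, SE 0.07, adjusted p = 0.000738 in limma). LINC00884 (-0.69), LINC00888 (-0.58), LINC00674 (-0.56), LINC00680 (-0.50) and LINC00869 (-0.46) fell as well, each with both knockdown libraries below both controls. LINC01578, called CHASERR in RefSeq and known to restrain its neighbour CHD2, had 18.6 and 20.1 FPKM against 16.6 and 17.8 FPKM (-0.16, adjusted p = 0.137 in limma), and CHD2 itself did not pass either (-0.19, adjusted p = 0.152). For 84 LINC genes the nearest tested gene was looked up, a comparison chosen after the data were seen. Both genes passed in 12 cases, 9 in the same direction and 3 in opposite ones, and the log2 fold changes of the 84 pairs had a Pearson's r of 0.22 and a Spearman's rho of 0.24. By themselves 29 of these LINC genes passed, beside 42.2% of all genes tested. How many joint calls arise without a link between neighbours was not tested.

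**Figure D3:**
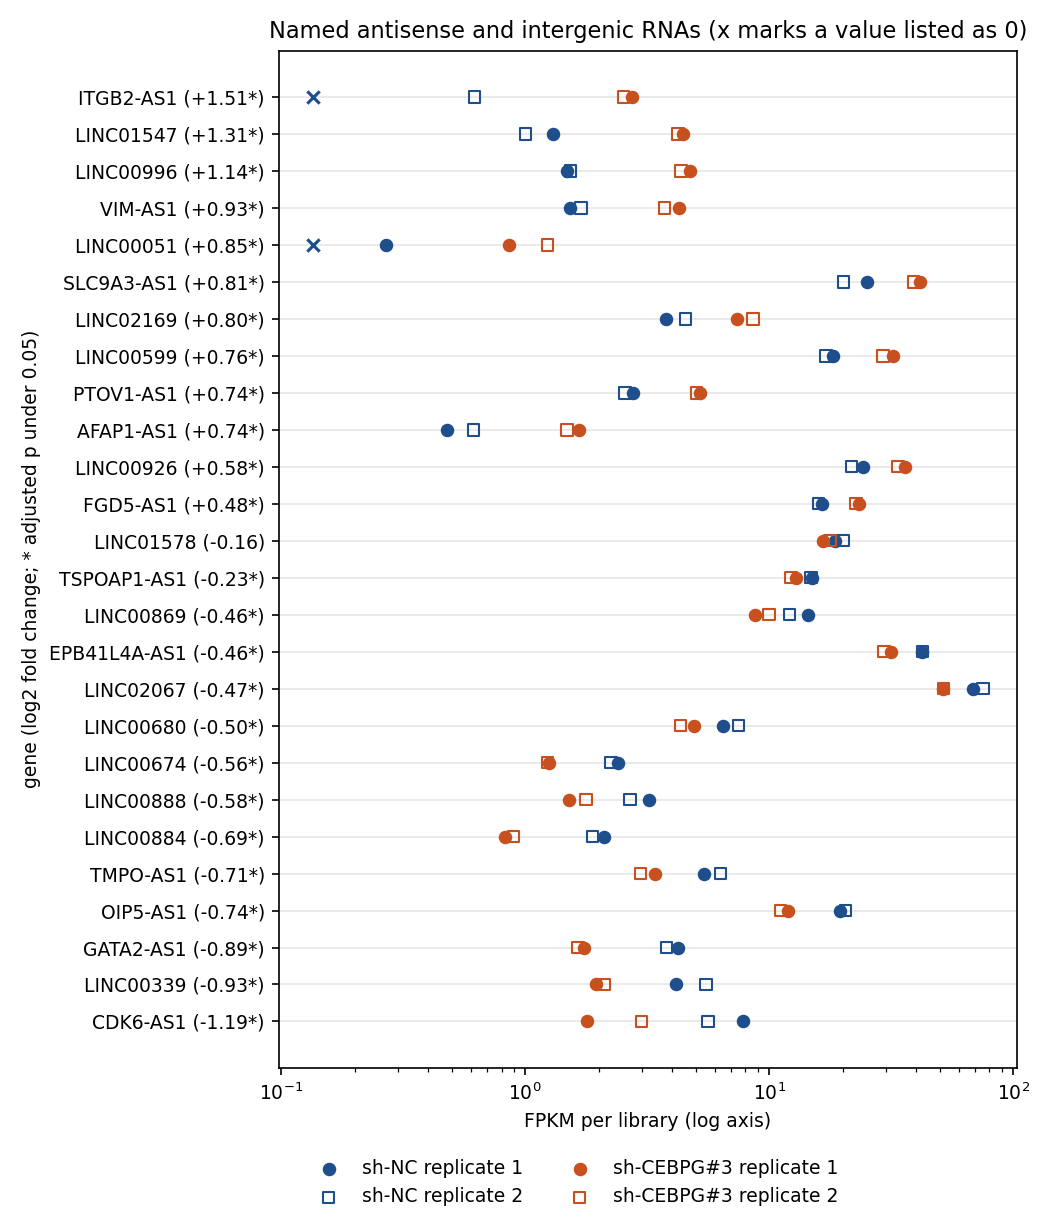
FPKM in each library (log axis) for 26 named antisense and LINC genes, ordered by log2 fold change, with a star for an adjusted p under 0.05. Crosses mark values listed as 0, for ITGB2-AS1 and LINC00051, and have no place on the axis, and in each starred gene the knockdown libraries lie on 1 side of the control libraries.

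The proteins that act with these RNAs were compared in the same fit. Of 15 genes of the core and assembly of snoRNPs, the particles in which snoRNAs work, 9 fell, 1 rose and 5 did not pass, so that 66.7% passed, beside 42.2% of all genes tested (23.8% lower). Their median log2 fold change was -0.41, beside -0.04 over all genes tested. Most of these 15 genes lie at 10 FPKM or more, where 50.5% of all genes tested passed. The others lie between 2 and 10 FPKM, where 41.0% passed. DKC1, the pseudouridine synthase of box H/ACA snoRNPs, had the largest decrease, from 60.9 and 69.5 FPKM to 33.6 and 33.8 FPKM (-0.93, SE 0.08, adjusted p = 1.76e-05 in limma). NOP56, of the box C/D particle, went from 122 and 134 FPKM to 91.9 and 83.8 FPKM (-0.54), and FBL, the methyltransferase of the same particle, from 259 and 266 FPKM to 184 and 189.8 FPKM (-0.48). NOP10, a small H/ACA protein, was the 1 gene that rose, from 80.2 and 84.8 FPKM to 107 and 90.3 FPKM (0.25, adjusted p = 0.0427 in limma), and it did not pass with quantile normalization, where 11 of the 15 genes were lower and none higher.

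Of 81 cytosolic ribosomal protein genes tested, 31 fell, 1 rose and 49 did not pass, with a median log2 fold change of -0.14. The share that passed (39.5%) was near the 42.2% of all genes tested. Nearly all of these genes lie at 10 FPKM or more, where 50.5% of all genes tested passed. Those that passed were almost all lower, whereas over all genes tested 23.8% were lower and 18.5% higher. RPS10 (1027 and 1076 FPKM against 663 and 576 FPKM, -0.76) and RPL39L (-0.69) fell most, and RPL15 rose from 352 and 388 FPKM to 512 and 463 FPKM (0.40, adjusted p = 0.00303 in limma). This count was unstable. It was 6 without sh-CEBPG#3 replicate 1 and 6 without replicate 2, and 59 with quantile normalization, of which 57 were lower.

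Among 13 paraspeckle proteins, 6 fell and none rose, a share of 46.2%. All 13 lie at 10 FPKM or more, where 50.5% of all genes tested passed. In the lists of microRNA processing and nonsense-mediated decay genes the shares that passed were 30.8% and 28.6%, beside 42.2% of all genes tested. SFPQ fell from 118 and 123 FPKM to 87.8 and 80.1 FPKM (-0.52) and DAZAP1 from 99.3 and 108 FPKM to 72.6 and 72.2 FPKM (-0.51), whereas NONO, the partner of SFPQ, had 135, 148, 143 and 132 FPKM (-0.04, adjusted p = 0.699 in limma). The count fell to 3 without sh-CEBPG#3 replicate 2. Of 13 microRNA processing genes 4 fell and none rose, among them DGCR8 (-0.40), which binds the hairpin for DROSHA, and TNRC6A (-0.37), and the count was 2 without sh-CEBPG#3 replicate 2. DROSHA and DICER1 did not pass (0.00 and -0.19). Of 14 genes of nonsense-mediated decay, the pathway that degrades many spliced SNHG RNAs, 3 fell (UPF3A -0.47, UPF2 -0.45 and SMG6 -0.35) and SMG9 rose (0.28), while UPF1, the central helicase, had 32.9, 34.3, 33.97 and 32.6 FPKM. The count of 4 was 2 without sh-NC replicate 2. PUM2, an RNA-binding protein known to bind NORAD, fell from 24.4 and 25.4 FPKM to 15.6 and 14.3 FPKM (-0.70, SE 0.08, adjusted p = 0.000109 in limma).

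The promoters of the noncoding genes were searched for C/EBP motifs and for the letters CCAAT. Both strands were read from 250 bases before to 50 bases after each start. TGATGCAA, a C/EBP-ATF composite, was in 0 of 307 promoters and in 0.866% of all 35116 promoters. TTGCGCAA, the C/EBP palindrome, was in 0 of 307 and in 0.151% of all. These motifs share their GCAA end, and at so low a share of all promoters 0 of 307 does not set the noncoding genes apart. CCAAT was in 29.3% of the promoters of the noncoding genes and in 34.6% of all promoters. It was in 11 of the 41 promoters of genes that rose (26.8%) and in 19 of the 52 promoters of genes that fell (36.5%). Which proteins bind these CCAAT letters was not tested.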

How the data were processed

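RNA of MV4-11 cells was measured in 2 sh-NC and 2 sh-CEBPG#3 libraries, grouped by their GEO labels. Libraries were made with an Illumina TruSeq RNA kit, and the authors mapped filtered reads with HISAT2 2.0.5 to hg38, per the submitters' processing notes. The authors deposited FPKM values for 28780 RefSeq transcripts, of which 28581 have values. The annotation release and the program that computed FPKM are not given in the sources used here. No authors' comparisons were used.

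A noncoding gene is the sum of its NR_ transcripts, with 1 coding transcript of such a symbol left out. All other genes are sums over their symbol. Genes whose mean reached 0.5 FPKM (12142) were tested on log2(FPKM + 1) with limma 3.58.1 (lmFit, eBayes with a trend) in R 4.3.3, without a block. As the values are FPKM, no count test was run. Pearson's r between libraries was 0.993 and 0.994 within the groups and 0.962 to 0.964 across them. In simulated data of 12142 genes, 92.5% of 200 genes with a log2 change of 1.5 were called in this comparison, along with 7 unchanged genes. The changed genes were drawn only from genes above a set level in sh-NC cells, and most of the 348 noncoding genes lie below it. Of the 348 genes, 342 had an absolute log2 fold change under 1, so this rate does not apply to them. The simulation also shuffled the spreads among genes and changed far fewer genes than the 5128 that passed in the data. Neither the 92.5% nor the 7 genes give a rate for the fit to the data. Depth is unknown, so no counting intervals are given.

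Positions, promoters and microRNAs come from RefSeq (GRCh38.p14), which matched 347 of the 348 genes, and strands and exons from GENCODE release 44. The genes and lists were chosen with earlier results of these data known. Named are the 5 single names, in each of 4 classes the 5 most abundant genes and the 5 lowest and 5 highest log2 fold changes among genes with an adjusted p under 0.05 and no overlap of the groups, the 3 genes on each side of the 0.5 FPKM limit, the sense partners, the 2 lowest and 2 highest called genes of each of 6 lists, and CEBPG. FBL, NONO, DROSHA, DICER1, UPF1, UBL7-AS1 and the genomic neighbours were named beyond this rule, after their values were seen. A few genes that it names are not reported here. Alternatives were pseudocounts of 0.1 and 0.01, a mean of at least 1 FPKM, no filter, a block for the replicate number, totals made equal, quantile normalization, single libraries left out, and each transcript tested by itself.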

Additional observations from a re-analysis of the deposited data

How the results depend on the processing

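When each transcript was tested by itself, with a gene standing by its most abundant one, 15 noncoding genes passed an adjusted p of 0.05 (10 higher, 5 lower), of which 14 were among the 103, and over all genes the share fell to 10.8%. In that setting 2 genes passed the fold threshold downward, 1 antisense pair moved in the same direction and 0 in opposite ones, and the counts were 5 for snoRNP genes, 3 for paraspeckle proteins, 0 for nonsense-mediated decay, 0 for microRNA processing and 5 for ribosomal proteins. TSPOAP1-AS1 (0.037, adjusted p = 0.895 in limma) and UBL7-AS1 (0.12 in place of -0.36, adjusted p = 0.780) changed sign in it, MIR9-3HG went to -0.15 (adjusted p = 0.674) and MIR4435-2HG to -0.62 (adjusted p = 0.0621). The other settings with all libraries gave between 76 (no filter) and 109 (equal totals) noncoding genes, and no called gene changed sign in them. The count past the fold threshold was 24 (15 higher, 9 lower) with a pseudocount of 0.1 and 30 (19 higher, 11 lower) with 0.01, and the higher genes were 3 with quantile normalization and 3 with equal totals. Without a filter MALAT1, DANCR, SNHG1, SNHG9, SNHG17, SNHG25, MIR17HG and TSPOAP1-AS1 lost their calls (adjusted p from 0.0548 to 0.102), and SNHG1 (adjusted p = 0.188) and TSPOAP1-AS1 (adjusted p = 0.125) lost theirs with the block. MIR34AHG, whose groups overlap, passed with the block (adjusted p = 5.98e-20). In that fit and in those without an sh-NC library limma took each gene's variance from the trend across genes alone, so that spread particular to a gene does not enter these p-values. SNHG5 passed with quantile normalization (adjusted p = 0.0265) and with equal totals (adjusted p = 0.0160), and LINC01578 with equal totals (adjusted p = 0.0497). Without a filter, opposite pairs were 2, nonsense-mediated decay genes 2 and ribosomal proteins 12. Ribosomal proteins were 59 with quantile normalization and 50 with equal totals, where nonsense-mediated decay genes were 7. With single libraries left out, there were 83 to 98 noncoding genes passing, 0 to 2 lower past the fold threshold, 14 to 20 pairs in the same direction, 2 to 6 in opposite ones, 3 to 7 paraspeckle, 2 to 4 nonsense-mediated decay, 2 to 4 microRNA processing and 6 to 47 ribosomal protein genes. GAS5 then ranged from -0.0019 (adjusted p = 0.987 in limma) to 0.082, which turned its sign. CEBPG ranged from -0.87 to -0.70 there. With the replicate number as a block, 103 noncoding genes passed, of which 96 were the same, and 14 ribosomal protein genes. Same-numbered libraries deviated together with a correlation of 0.061 across genes, so the number marks no pairing seen in the data. The causes of these changes were not tested.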

Other observations

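In a few genes with several RefSeq transcripts, chosen after their values were seen, transcripts of the same gene had differences of opposite sign between the groups; these values come from a limma fit per transcript. ZSCAN16-AS1 had 0.911 and 1.55 FPKM for NR_103455 in the sh-NC libraries and was listed at 0 for it in both sh-CEBPG#3 libraries, whereas NR_103456 rose from 0.544 and 0.363 FPKM to 2.42 and 2.04 FPKM (log2 fold change 1.15, adjusted p = 0.0436, and 0.0661 for NR_103455, which did not pass). The increase of FGD5-AS1 lay in NR_046252, with 6.76 and 7.50 FPKM in control cells and 16.5 and 17.5 FPKM in knockdown cells (1.15, adjusted p = 0.0165), while NR_046254 had 5.87 and 4.17 FPKM against 2.81 and 2.35 FPKM and did not pass (-0.74, adjusted p = 0.101). SNHG16, whose sum did not pass, held NR_038111 with 10.8 and 11.8 FPKM against 7.55 and 7.51 FPKM (-0.52, adjusted p = 0.0511) and NR_038109 with 37.1 and 38.3 FPKM against 49.2 and 41.4 FPKM (0.25, adjusted p = 0.205), neither of which passed. How fragments were divided among the transcripts of a gene is not given in the sources used here, and the part of that division in these values was not tested.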
